A study of Mus musculus with 31 samples.

Results

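DN1 thymocytes of the control genotype were followed from day 5 to day 7 of culture on OP9-DL1 stromal cells. The 4 libraries of this comparison (day 7, n = 2; day 5, n = 2) were chosen by culture, genotype and day from the sample titles, and belong to a mouse RNA-seq series of 31 libraries. DN1 cells are the earliest thymocytes, which lack CD4 and CD8. The donors were C57BL/6 per the labels and carried R26-CreERT2, a Cre recombinase that 4-hydroxytamoxifen (4-OHT) switches on, and R26-stop-tdTomato, a reporter that Cre turns on, without floxed E2A or HEB alleles. Stem cell factor, IL-2 and IL-7 were in the medium. The design text places 4-OHT on day 4, while the DN1 day 7 samples carry a label with day 7 for it, and day 4 was taken. Cells were sorted for tdTomato before RNA was taken on day 5 and on day 7, so both days hold cells in which Cre had acted, and time in culture cannot be told apart from time since 4-OHT. Set beside them were DN1 floxed cultures (the same alleles plus floxed E2A and HEB, day 7 and day 5, n = 2 each) and DN3 control cultures (the control genotype, started from the later DN3 stage, day 7 and day 5, n = 2 each). For these too 4-OHT was taken as given on day 4, and in floxed cells it is meant to delete E2A and HEB through Cre. Nothing in the labels says whether replicates, lettered c and d in controls, are separate mice or separate cultures. The p-values rest on the spread between replicate libraries, estimated over all 24 culture libraries of the series, and that spread may be technical. No source used here gives the age or number of the mice. The name DN1 is that of the cells placed in culture: Il2ra, which encodes CD25 and is off in DN1 cells as isolated, stood at 1279 and 1308 CPM on day 7 and 1094 and 1023 CPM on day 5 (CPM scales counts by the library total).

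Delta-like 1 on OP9-DL1 stroma binds Notch receptors on thymocytes and drives them into the T lineage. In that lineage the E proteins E2A (gene Tcf3) and HEB (gene Tcf12) bind E boxes and are known to promote genes of the T cell receptor complex and its assembly, such as the CD3 chains, the RAG recombinase and Dntt. The Id proteins bind E proteins and keep them from DNA. Interleukin 7 acts through the kinase JAK and the factor STAT5 to keep early thymocytes alive and dividing.

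The libraries held 8243416 (c) and 8010706 (d) counts on day 7 and 6743376 (c) and 7898407 (d) on day 5, so 1 read was at most 0.148 CPM. Markers of stromal cells, a list of 15 genes, summed to 283 and 117 CPM on day 7 and to 130 and 146 CPM on day 5, and to 14600 and 13800 CPM in the unsorted day 4 libraries. None of the 14 stromal genes tested passed between day 7 and day 5 with edgeR or DESeq2, and none had an unadjusted p under 0.05 with edgeR. Their log2 changes were positive for 13 and negative for 1 (median 0.53, against 0.04 over all genes tested). Replicates of a day differed by more than counting noise (chi-square per degree of freedom 4.82 on day 7 and 5.18 on day 5).

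Of 15172 genes tested, 979 were higher on day 7 and 1009 were lower (6.45% and 6.65%, in all 13.1%) with edgeR's quasi-likelihood test at a Benjamini-Hochberg adjusted p under 0.05, the test behind every adjusted p given here. Every gene named as having passed had day 7 libraries that did not overlap the day 5 libraries. For the 12 largest changes each way this was a condition of choice, and with 2 libraries a day it adds no support to a call. The genes that rose and those that fell differed in level and in size of change. Genes higher on day 7 had a median mean level of 18.9 CPM and a median log2 change of 0.98, and 477 of the 979 were past 2-fold. Genes lower on day 7 had a median mean level of 104 CPM and a median log2 change of -0.52, and 50 of the 1009 were past 2-fold. The median over all genes tested was 13.5 CPM with a log2 change of 0.04. Processed pseudogenes, whose reads can belong to their parent genes, were 5 of the higher calls (0.511%) and 45 of the lower calls (4.46%), both below their share of 7.49% among all genes tested. Leaving out 1 of the 4 libraries left between 703 (without day 7 c) and 1025 (without day 7 d) genes passing, and 478 genes passed in all 4 such fits (236 higher, 242 lower).

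**Figure D1:**
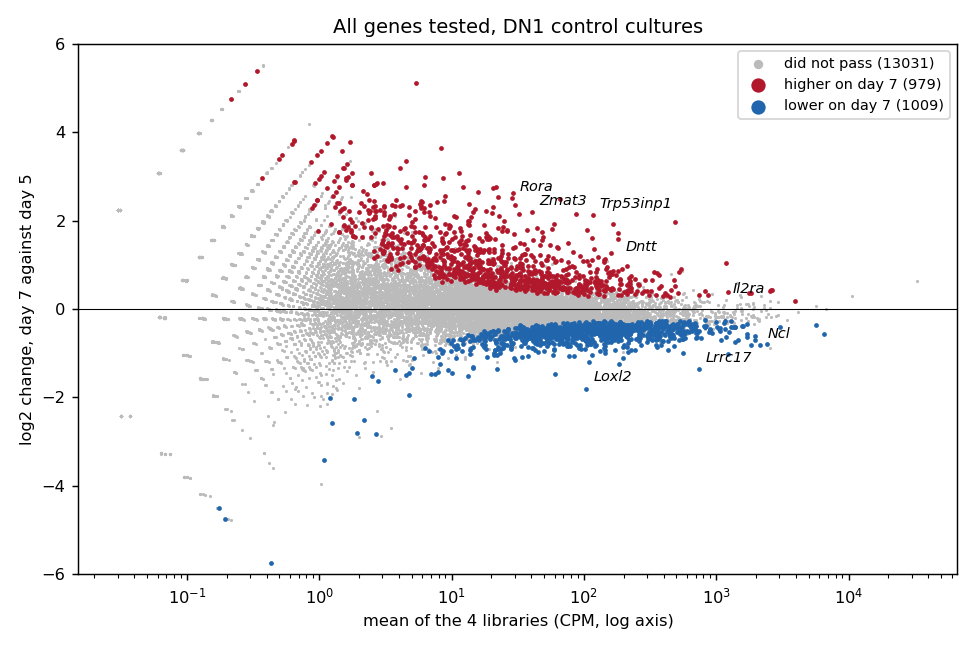
Log2 change of each gene tested, day 7 against day 5 (vertical axis), against its mean level in the 4 DN1 control libraries (CPM, log axis). Red points are the 979 genes higher on day 7, blue points the 1009 lower and grey points those that did not pass; 4 genes lie outside the vertical range. The red points spread over larger changes and lower levels than the blue points.

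Genes of the T cell receptor complex were higher on day 7. The CD3 chains carry the signal of the T cell receptor, and 4 of the 4 CD3 genes listed passed while Ptcra, the pre-T alpha chain that pairs with the first rearranged beta chain, did not (4 of 5 in all, median log2 change 1.19, against 0.04 over all genes tested). Cd3d, CD3 delta (chromosome 9, 44981786 to 44987339, plus strand, mm10 with GENCODE M21), had 179.7 and 152 CPM on day 7 and 44.9 and 46.1 CPM on day 5 (log2 change 1.78 ± 0.27, adjusted p = 0.000289). Cd3g, CD3 gamma (chromosome 9, 44969572 to 44980431, minus strand), had 84.7 and 81 CPM on day 7 and 37.1 and 37.5 CPM on day 5 (log2 change 1.07 ± 0.22, adjusted p = 0.00317). In both genes the day 7 libraries lay above the day 5 libraries with no overlap, and the replicates of a day were close to each other. Cd3e, CD3 epsilon (chromosome 9, 44998740 to 45009627, minus strand), had 44.2 and 45.3 CPM on day 7 and 15.9 and 16.2 CPM on day 5 (log2 change 1.40 ± 0.32, adjusted p = 0.00641). Cd247, the zeta chain (chromosome 1, 165788681 to 165877277, plus strand), had 76.8 and 75.4 CPM on day 7 and 31.4 and 31.5 CPM on day 5 (log2 change 1.19 ± 0.21, adjusted p = 0.00107). Per kilobase of exon, the 4 day 7 means were 91.3 CPM for Cd3d, 25.3 for Cd3g, 14.3 for Cd247 and 11 for Cd3e, so Cd3d stood highest of the 4 on that day. The Ptcra level was 6.31 and 7.74 CPM on day 7 and 10.8 and 7.85 CPM on day 5 (log2 change -0.49 ± 0.33, adjusted p = 0.383). The Cd3e call was lost without day 5 c or day 5 d.

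Cd3g, Cd3d and Cd3e lie within 1 stretch of chromosome 9, with Cd3g and Cd3d pointing away from each other, and their promoters are printed because the 3 genes moved together. Each runs from 250 bases before to 50 bases after the gene's start, 5′ to 3′ on the gene's strand (RefSeq, GRCm38.p6), and capitals mark the E box CAGNTG read on either strand.
Cd3d promoter (chr9:44981536-44981835, plus strand): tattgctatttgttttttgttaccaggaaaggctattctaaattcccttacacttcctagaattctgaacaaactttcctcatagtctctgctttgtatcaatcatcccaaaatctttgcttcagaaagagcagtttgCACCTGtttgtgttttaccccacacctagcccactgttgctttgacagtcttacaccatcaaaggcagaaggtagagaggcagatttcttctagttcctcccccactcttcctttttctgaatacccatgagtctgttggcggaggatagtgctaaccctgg
Cd3g promoter (chr9:44980382-44980681, minus strand): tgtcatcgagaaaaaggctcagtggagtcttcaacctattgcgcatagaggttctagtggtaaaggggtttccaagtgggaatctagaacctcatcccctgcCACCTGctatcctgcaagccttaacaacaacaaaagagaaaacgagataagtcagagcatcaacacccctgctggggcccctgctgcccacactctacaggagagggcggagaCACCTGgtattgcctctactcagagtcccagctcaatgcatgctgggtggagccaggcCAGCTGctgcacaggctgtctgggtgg
Cd3e promoter (chr9:45009562-45009861, minus strand): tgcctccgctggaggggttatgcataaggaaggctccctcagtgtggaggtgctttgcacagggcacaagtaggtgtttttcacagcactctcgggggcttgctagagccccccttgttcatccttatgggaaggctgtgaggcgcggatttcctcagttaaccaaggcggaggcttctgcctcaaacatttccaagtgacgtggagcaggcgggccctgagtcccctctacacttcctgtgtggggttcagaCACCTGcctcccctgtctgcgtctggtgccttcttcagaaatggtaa
The motif occurred 1 time in the Cd3d window, 3 times in that of Cd3g and 1 time in that of Cd3e, and not in the windows of Dntt or Id3. It is common: 51.4% of the 32841 promoters of the table held at least 1. Among the genes with a promoter in the table it was present for 48.1% of the 720 higher on day 7, 35.7% of the 775 lower on day 7 and 43% of the 10096 tested. The base composition of these sets was not compared, and a match in these windows describes the letters and not a site in use.

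Dntt, the enzyme TdT that adds bases at the joints of rearranging receptor genes (chromosome 19, 41029275 to 41059525, plus strand), had 296 and 271 CPM on day 7 and 87.2 and 74.7 CPM on day 5 (log2 change 1.73 ± 0.37, adjusted p = 0.00415; the call was lost without day 5 d). It was the member of the 3 recombination genes that passed. Rag1, a subunit of the recombinase, had 63.7 and 71.8 CPM on day 7 and 39.7 and 32.2 CPM on day 5 (log2 change 0.83 ± 0.38, adjusted p = 0.162). Rag2, its partner, named after its values were seen, had 7.28 and 10.2 CPM on day 7 and 7.41 and 4.43 CPM on day 5 (log2 change 0.49 ± 0.39, adjusted p = 0.46). Day 7 Rag1 libraries lay above the day 5 libraries, while the Rag2 libraries overlapped.

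Constant regions of receptor genes were higher for 4 of 8 (median log2 change 0.47), against 6.45% of all genes tested. The delta chain constant region Trdc had 170.3 and 163 CPM on day 7 and 80.5 and 87.9 CPM on day 5 (log2 change 0.90 ± 0.11, adjusted p = 4.90e-05), and the gamma chain region Tcrg-C4 had 241 and 232 CPM on day 7 and 127 and 119.9 CPM on day 5 (log2 change 0.85 ± 0.15, adjusted p = 0.000799). Smaller changes passed for Tcrg-C1 (0.52 ± 0.14) and the beta chain region Trbc1 (0.49 ± 0.09), which had 448 and 441 CPM on day 7 and 291 and 308 CPM on day 5. Trbc2, the more abundant beta region, did not pass, with 1072 and 1136 CPM on day 7 and 1198 and 1254 CPM on day 5 (log2 change -0.23 ± 0.12, adjusted p = 0.241). Gamma and beta constant regions have near copies, so reads may be split between them, and a constant region can be transcribed before its gene is rearranged. The Tcrg-C1 call was lost when any 1 of the 4 libraries was left out. CD4 and CD8 genes, the coreceptors of later thymocytes, were near the floor of the assay. With edgeR or DESeq2, 0 of 3 passed, and none had an unadjusted p under 0.05 with edgeR. Cd8b1 had 1.09 and 0.874 CPM on day 7 and 1.19 and 1.65 CPM on day 5 (log2 change -0.61 ± 1.22, adjusted p = 0.804).

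Genes that relay receptor signals were higher for 6 of 20 tested, with none lower and a median log2 change of 0.49. Among all genes tested, 6.45% were higher and 6.65% lower. Cd28, the costimulatory receptor, had 24.3 and 18.9 CPM on day 7 and 4.15 and 6.58 CPM on day 5 (log2 change 1.91 ± 0.38, adjusted p = 0.00266). Txk, a Tec family kinase, had 59.8 and 61 CPM on day 7 and 34.4 and 28.5 CPM on day 5 (log2 change 0.86 ± 0.21, adjusted p = 0.0111). Lcp2, the adaptor SLP-76, changed less (0.42 ± 0.10). Lck, the kinase of the CD3 chains and the most abundant member per length that did not pass, had 348 and 356 CPM on day 7 and 270.0 and 271 CPM on day 5 (log2 change 0.30 ± 0.15, adjusted p = 0.205). Cd2, Prkcq and Themis made up the rest of the 6. With DESeq2, 10 of the 20 passed. With 1 library left out, 1 (without day 5 c or day 5 d), 2 (without day 7 c) or 3 (without day 7 d) of the 20 were higher. The Cd28 call was lost without day 5 c, that of Txk without day 5 d, day 7 c or day 7 d, and that of Lcp2 when any 1 was left out.

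**Figure D2:**
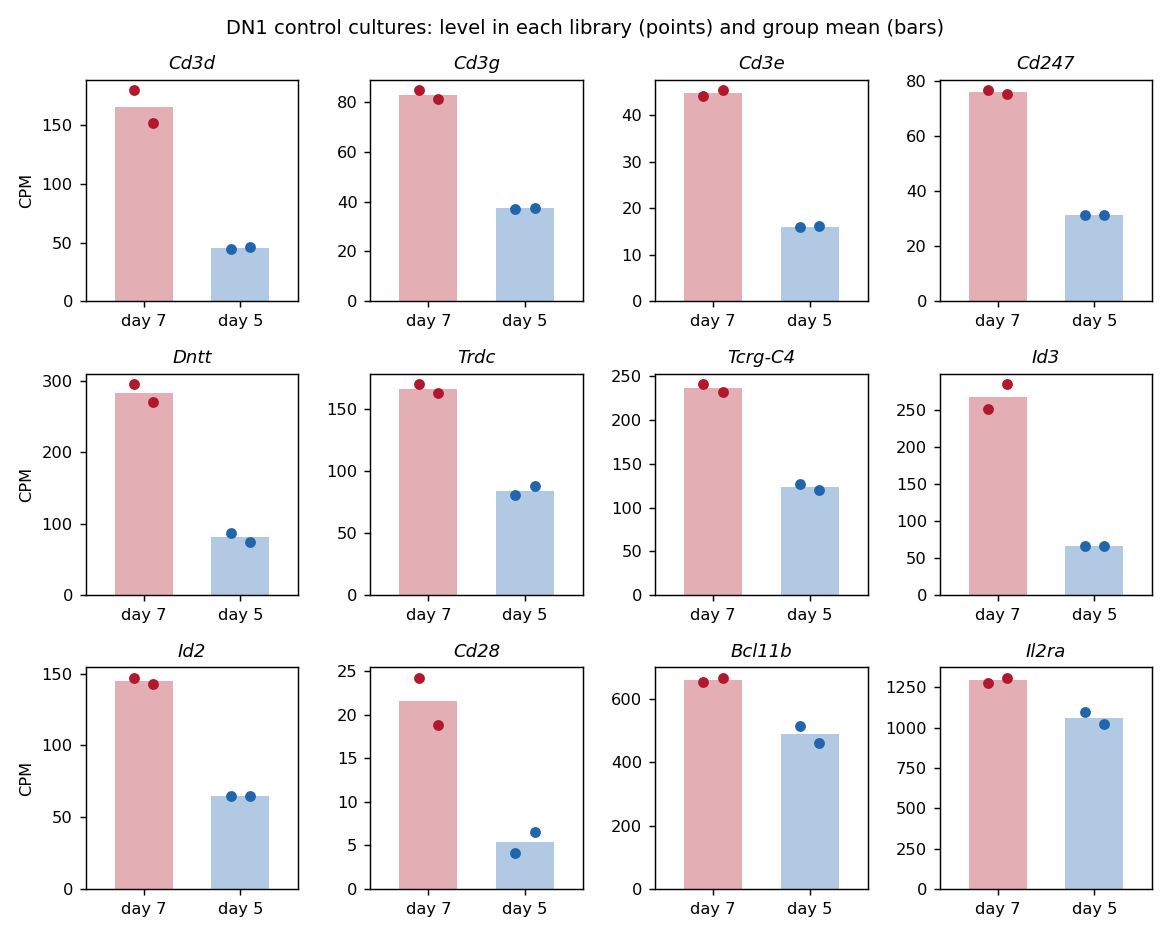
Level (CPM, linear axes from 0) of 12 genes in each DN1 control library (points) with the group mean (bars), day 7 left and day 5 right. Cd3d, Cd3g, Cd3e, Cd247, Dntt, Trdc, Tcrg-C4, Id3, Id2 and Cd28 passed and are higher on day 7, while Bcl11b and Il2ra did not pass.

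Of 19 T lineage transcription factors, 3 were higher and none lower (median log2 change 0.24), against 6.45% higher and 6.65% lower among all genes tested. Bcl11b, the factor that seals commitment to the T lineage (chromosome 12, 107910403 to 108003602, minus strand), had 652 and 666 CPM on day 7 and 514 and 462 CPM on day 5 (log2 change 0.35 ± 0.12, adjusted p = 0.0585). The day 7 libraries were both above the day 5 libraries, and the gene missed the threshold; it passed with DESeq2 and with RLE size factors. Ets1 had 167 and 168 CPM on day 7 and 111 and 93.1 CPM on day 5 (log2 change 0.63 ± 0.17, adjusted p = 0.0194). Tox had 164 and 158 CPM on day 7 and 105 and 104 CPM on day 5 (log2 change 0.53 ± 0.14, adjusted p = 0.0158). Spib, an Ets family factor low in these cells, was the other member that passed (10.68 and 9.86 CPM on day 7 and 1.33 and 2.79 CPM on day 5; 2.21 ± 0.37). Tcf7, the Notch target TCF-1 and the most abundant per length of those that did not pass, had 543 and 527 CPM on day 7 and 413 and 429 CPM on day 5 (log2 change 0.26 ± 0.15, adjusted p = 0.278). Gata3, named after its values were seen, had 184 and 161 CPM on day 7 and 155 and 145 CPM on day 5 (log2 change 0.12 ± 0.20, adjusted p = 0.762). The calls of Ets1 and Tox were lost when any 1 library was left out, and Spib passed in all 4 such fits.

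Id3 and Id2, whose proteins hold E proteins off DNA, were higher on day 7. Id3 (chromosome 4, 136143497 to 136145755, plus strand) had 251 and 284 CPM on day 7 and 65.5 and 66.6 CPM on day 5 (log2 change 1.94 ± 0.17, adjusted p = 2.72e-06). Id2 (chromosome 12, 25093799 to 25097140, minus strand) had 147 and 143 CPM on day 7 and 64.5 and 64.6 CPM on day 5 (log2 change 1.08 ± 0.21, adjusted p = 0.00195). Both passed in every fit that left out 1 library. Id1 had 56.7 and 47.8 CPM on day 7 and 28.9 and 34.2 CPM on day 5 and did not pass (log2 change 0.64 ± 0.21, adjusted p = 0.0502). It passed in 4 of the 6 alternative settings of the fit that kept all 4 libraries, and in no fit that left out 1 library. Of the E protein genes, Tcf12 (HEB) had 273 and 285 CPM on day 7 and 213 and 203 CPM on day 5 (log2 change 0.34 ± 0.10, adjusted p = 0.0306; lost when any 1 library was left out or with a replicate block). Tcf3 had 81.6 and 94.6 CPM on day 7 and 80.7 and 88.6 CPM on day 5 (log2 change -0.02 ± 0.34, adjusted p = 0.984). Neither is floxed in these cultures, and both were present on both days.

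Of 11 Notch genes tested, 1 was higher and 1 lower (median log2 change 0.08), against 6.45% higher and 6.65% lower among all genes tested. Notch3, a receptor, had 33.4 and 31.8 CPM on day 7 and 13.3 and 15.7 CPM on day 5 (log2 change 1.08 ± 0.31, adjusted p = 0.0269). Nrarp, a feedback inhibitor that Notch induces, had 50.3 and 44.3 CPM on day 7 and 67.5 and 66.7 CPM on day 5 (log2 change -0.58 ± 0.19, adjusted p = 0.0438). Il2ra did not pass (log2 change 0.21 ± 0.10, adjusted p = 0.192). The Notch3 and Nrarp calls were lost when any 1 library was left out, and that of Nrarp also with DESeq2 and with RLE size factors.

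Of 18 transcription factors of uncommitted progenitors, none was higher and 2 were lower (median log2 change -0.20). Among all genes tested, 6.45% were higher and 6.65% lower. Bcl11a, a factor of lymphoid progenitors and B cells, had 21.8 and 23.8 CPM on day 7 and 41.1 and 50.1 CPM on day 5 (log2 change -1.08 ± 0.29, adjusted p = 0.0174). Hoxa9 was at a few reads per library, with 0.121 and 0.25 CPM on day 7 and 1.33 and 2.66 CPM on day 5. Lyl1, the most abundant per length that did not pass, had 81.6 and 73.9 CPM on day 7 and 113 and 110.0 CPM on day 5 (log2 change -0.60 ± 0.27, adjusted p = 0.158). Both calls of this list were lost when any 1 library was left out, and that of Hoxa9 with DESeq2.

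Surface genes of progenitors moved both ways, 2 higher and 1 lower of 8 tested, against 6.45% higher and 6.65% lower among all genes tested. Cd44, the adhesion receptor that thymocytes lose between DN2 and DN3, had 26.8 and 28.7 CPM on day 7 and 50.6 and 44.1 CPM on day 5 (log2 change -0.85 ± 0.24, adjusted p = 0.024). Ly6a, the antigen Sca-1, had 45.7 and 55.4 CPM on day 7 and 9.94 and 8.86 CPM on day 5 (log2 change 2.35 ± 0.33, adjusted p = 0.000153). Cd34 had 51.3 and 61 CPM on day 7 and 26 and 27.9 CPM on day 5 (log2 change 0.98 ± 0.29, adjusted p = 0.0339). Kit, the receptor of stem cell factor, named after its values were seen, had 84.8 and 82.9 CPM on day 7 and 88.2 and 93.7 CPM on day 5 (log2 change -0.20 ± 0.28, adjusted p = 0.703). Of the 12 surface genes of T progenitors, 5 were higher and none lower (median log2 change 0.46). Cd7 had 38.7 and 31 CPM on day 7 and 12.6 and 13.3 CPM on day 5 (log2 change 1.34 ± 0.33, adjusted p = 0.0105). Thy1, a glycoprotein of T cells, had 239.7 and 223 CPM on day 7 and 174 and 161 CPM on day 5 (log2 change 0.39 ± 0.10, adjusted p = 0.0198). In each of these the day 7 libraries were close to each other and above day 5. Cd27 and Ccr7 passed as well. With 1 library left out the count was 1 (without day 5 d or day 7 c) to 3 (without day 7 d). The calls of Cd44, Cd34, Thy1 and Cd27 were lost when any 1 was left out, that of Cd7 without day 5 c, day 5 d or day 7 c, and that of Ccr7 without day 5 d or day 7 c, while Ly6a passed throughout.

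Genes for making ribosomes were lower on day 7. Of 16 genes of ribosome biogenesis and Myc targets, 13 were lower and none higher, and all 16 log2 changes were negative (median -0.63, against 0.04 over all genes tested). Ncl, nucleolin, had 1564 and 1679 CPM on day 7 and 2799.5 and 2579.5 CPM on day 5 (log2 change -0.81 ± 0.08, adjusted p = 4.45e-06). Npm1, nucleophosmin, had 1308 and 1436 CPM on day 7 and 2325 and 2231 CPM on day 5 (log2 change -0.81 ± 0.08, adjusted p = 4.45e-06). Fbl, the fibrillarin that methylates ribosomal RNA, had 298 and 316 CPM on day 7 and 493 and 469.7 CPM on day 5 (log2 change -0.73 ± 0.14, adjusted p = 0.0016). In all 3 genes the day 7 libraries lay well under the day 5 libraries. Odc1, the first enzyme of polyamine synthesis, had 252 and 276 CPM on day 7 and 433 and 451 CPM on day 5 (log2 change -0.82 ± 0.14, adjusted p = 0.000919). Myc itself had 50.3 and 47.4 CPM on day 7 and 50 and 57.5 CPM on day 5, with overlapping libraries (log2 change -0.22 ± 0.63, adjusted p = 0.875). With 1 library left out, 10 or 11 of the 16 were lower.

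DNA replication genes were lower for 17 of 25 and higher for none (median log2 change -0.44), and mitosis genes for 5 of 20 with none higher (median -0.19). Among all genes tested, 6.65% were lower. Every member tested of both lists had a negative log2 change. Gins2, a subunit of the replicative helicase, had 86.6 and 98.2 CPM on day 7 and 147 and 161 CPM on day 5 (log2 change -0.82 ± 0.12, adjusted p = 0.000162). Mcm2, another helicase subunit, had 216 and 209 CPM on day 7 and 295 and 321 CPM on day 5 (log2 change -0.62 ± 0.15, adjusted p = 0.0119). Pcna, the sliding clamp, did not pass (219 and 197 CPM on day 7 and 253 and 245 CPM on day 5; log2 change -0.34 ± 0.14, adjusted p = 0.11). Cdk1, the kinase that starts mitosis, had 358 and 413 CPM on day 7 and 555 and 569 CPM on day 5 (log2 change -0.63 ± 0.11, adjusted p = 0.00113). Ccnb1, its cyclin B1 partner, had 137 and 146 CPM on day 7 and 199 and 204 CPM on day 5 (log2 change -0.59 ± 0.10, adjusted p = 0.000795). Both mitotic genes were lower by less than 2-fold. The mitotic kinase Plk1 had 266 and 321 CPM on day 7 and 468 and 458 CPM on day 5 but a wide error in the fit (log2 change -0.74 ± 0.69, adjusted p = 0.547). That fit takes in the other cultures too. In DN1 floxed libraries Plk1 had 36.7 and 149 CPM on day 7 and 54.2 and 259 CPM on day 5. Plk1 passed in 3 of the 6 alternative settings of the fit that kept all 4 libraries. The part of the floxed libraries in the error was not tested. Replication genes lower on day 7 numbered 5 (without day 5 c or day 7 c) to 7 (without day 5 d) when 1 library was left out, against 5 mitosis genes in every such fit. Gins2, Cdk1 and Ccnb1 passed in all 4 of these fits and Mcm2 in none. Of the brakes on G1, Cdkn1b, p27, had 28.4 and 25.5 CPM on day 7 and 15.4 and 18.4 CPM on day 5 (log2 change 0.59 ± 0.18, adjusted p = 0.0411), a call lost when any 1 library was left out, and Cdkn1a is given with the p53 genes. Cdk6, the most abundant G1 member per length that did not pass, had 1934 and 2099 CPM on day 7 and 1742 and 1784 CPM on day 5 (log2 change 0.11 ± 0.09, adjusted p = 0.452).

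Of 14 genes of amino acid supply and the unfolded protein response, 7 were lower and 1 higher (median log2 change -0.49). Psat1, of serine synthesis, had 98.9 and 101 CPM on day 7 and 182 and 192 CPM on day 5 (log2 change -0.99 ± 0.14, adjusted p = 0.000153). Atf4, a factor that induces genes of amino acid supply, had 260.3 and 241 CPM on day 7 and 372 and 376 CPM on day 5 (log2 change -0.66 ± 0.10, adjusted p = 0.000299). Mthfd2, of mitochondrial folate metabolism, had 115 and 114 CPM on day 7 and 177 and 166 CPM on day 5 (log2 change -0.67 ± 0.13, adjusted p = 0.00207). Shmt2 and Phgdh, of serine metabolism, changed by -0.57 ± 0.14 and -0.42 ± 0.12. Asns and Slc7a11 were the other lower members, and Ddit3, a stress factor, was the higher one (16.6 and 14.7 CPM on day 7 and 6.52 and 9.75 CPM on day 5). The chaperone Hspa5 did not pass (826 and 899 CPM on day 7 and 927 and 921 CPM on day 5; log2 change -0.18 ± 0.10, adjusted p = 0.238). With 1 library left out, 4 or 5 were lower. Psat1, Atf4 and Mthfd2 passed in each of these fits and Phgdh in none, while Shmt2 was lost without day 5 c, day 7 c or day 7 d, Asns and Ddit3 without day 5 c or day 7 c, and Slc7a11 without day 5 d or day 7 d. Of 24 genes of glycolysis and hypoxia, 3 were lower and 1 higher, against 13.1% of all genes tested passing in either direction. Hk2, a hexokinase, had 59.7 and 69.2 CPM on day 7 and 98.6 and 100.02 CPM on day 5 (log2 change -0.71 ± 0.17, adjusted p = 0.0103). Pgam1 changed by -0.42 ± 0.12 and Ldha, which makes lactate, by -0.33 ± 0.10, both lower. Hk1, the other hexokinase, had 98.7 and 103 CPM on day 7 and 66.7 and 71.9 CPM on day 5 (log2 change 0.46 ± 0.12, adjusted p = 0.0181). Pgam1, Ldha and Hk1 passed in no fit that left out 1 library, Hk2 passed only in that without day 7 d, and Ldha was lost with RLE size factors too. Of 24 sterol and fatty acid synthesis genes, 1 was lower and 1 higher, against the same 13.1%. Sqle was lower (-0.45 ± 0.11) and Insig1, which holds back sterol synthesis, higher (0.57 ± 0.17). The call of Sqle was lost without day 5 c, day 5 d or day 7 c, and that of Insig1 when any 1 was left out. The abundant desaturase Scd2 had 959 and 967 CPM on day 7 and 793 and 829 CPM on day 5 (log2 change 0.17 ± 0.10, adjusted p = 0.325).

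Targets of p53, the factor that answers DNA damage and other stress, were higher for 9 of 11, and none was lower (median log2 change 1.13, against 0.04 over all genes tested). Zmat3 had 67.8 and 66.8 CPM on day 7 and 13.6 and 14.2 CPM on day 5 (log2 change 2.19 ± 0.16, adjusted p = 3.24e-07). Trp53inp1 had 196 and 186 CPM on day 7 and 40.6 and 42 CPM on day 5 (log2 change 2.13 ± 0.17, adjusted p = 7.92e-07). Ccng1, cyclin G1, had 199 and 205 CPM on day 7 and 81.9 and 92.7 CPM on day 5 (log2 change 1.12 ± 0.11, adjusted p = 5.04e-06). The day 7 libraries of these 3 genes were all at more than 2 times the day 5 libraries. Phlda3 had 23.9 and 31.5 CPM on day 7 and 10.4 and 6.58 CPM on day 5 (log2 change 1.63 ± 0.21, adjusted p = 8.31e-05). Cdkn1a, the cell cycle inhibitor p21, had 206 and 241 CPM on day 7 and 125 and 123 CPM on day 5 (log2 change 0.77 ± 0.14, adjusted p = 0.00126). Mdm2, the ligase that degrades p53, and Eda2r also passed, and Aen did not (87.9 and 89.1 CPM on day 7 and 81.7 and 82.7 CPM on day 5; log2 change 0.03 ± 0.13, adjusted p = 0.939). With 1 library left out, 6 (without day 5 c or d) to 8 (without day 7 d) of the 11 were higher, the calls of Mdm2 and Eda2r being lost without day 5 c, day 5 d or day 7 c. Of the 9 that passed, 8 were also higher on day 7 in DN1 floxed cultures and all 9 in DN3 control cultures, which had 4-OHT as well, and Aen was higher in both of those cultures. Among all genes tested, 12% were higher in DN1 floxed and 10.5% in DN3 control cultures.

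**Figure D3:**
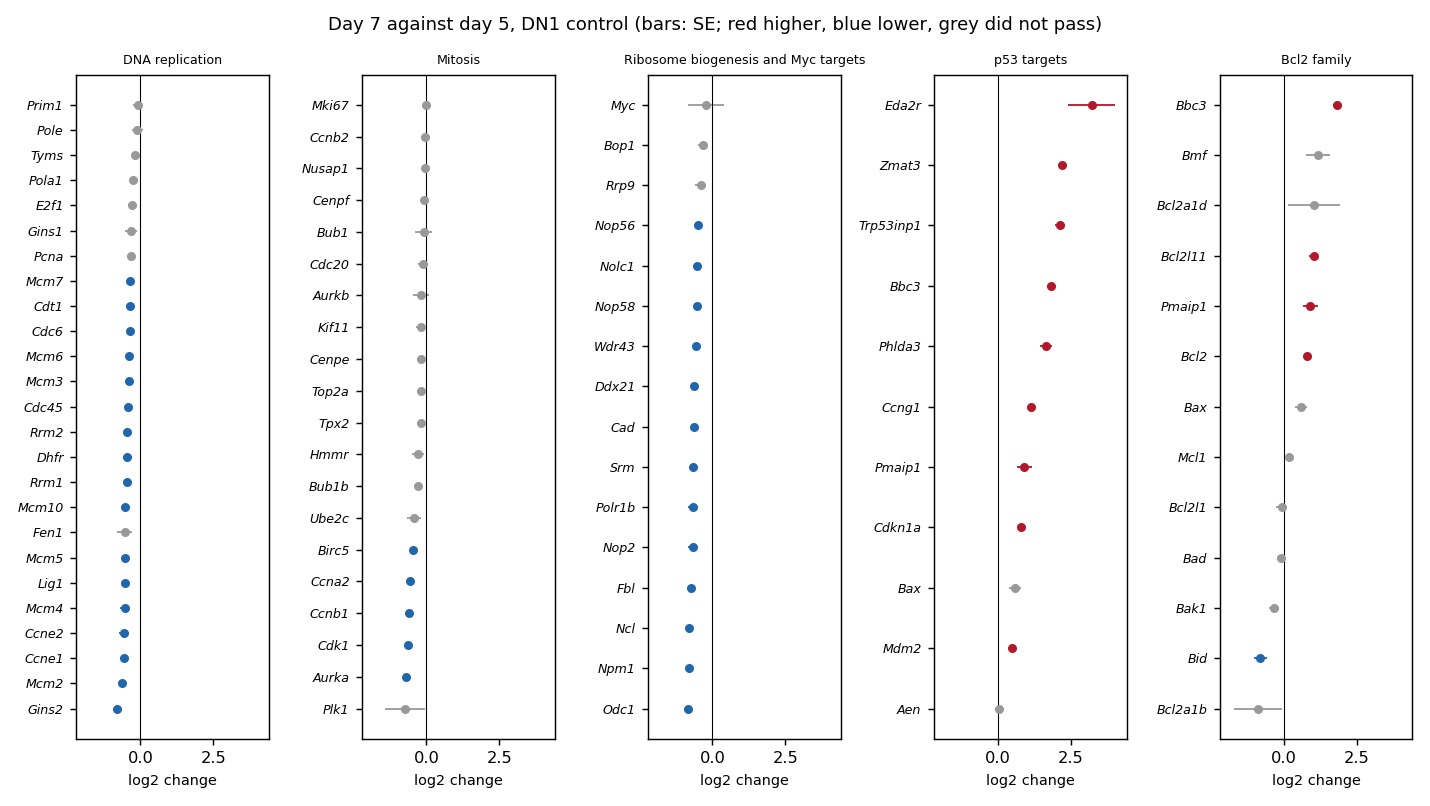
Log2 change, day 7 against day 5 in DN1 control cultures (points, with standard error bars), of every tested member of 5 lists, 1 panel a list. Members that passed are red when higher on day 7 and blue when lower; all replication, mitosis and ribosome members lie left of 0 and all p53 targets right of it.

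In the Bcl2 family, which sets the threshold of cell death, 4 of 13 tested were higher and 1 lower. Among all genes tested, 6.45% were higher and 6.65% lower. Bcl2, which protects cells, had 476 and 472 CPM on day 7 and 270.2 and 255 CPM on day 5 (log2 change 0.77 ± 0.10, adjusted p = 9.42e-05). The death-promoting members Bbc3 (PUMA) and Bcl2l11 (BIM) were also higher. Bbc3, a p53 target, had 89.2 and 91.6 CPM on day 7 and 24.6 and 24.1 CPM on day 5 (log2 change 1.81 ± 0.15, adjusted p = 1.46e-06). Bcl2l11 had 43.7 and 46.9 CPM on day 7 and 20.3 and 22 CPM on day 5 (log2 change 1.01 ± 0.16, adjusted p = 0.000353). Pmaip1 (NOXA), another p53 target, had 24.7 and 33.8 CPM on day 7 and 13.9 and 15.8 CPM on day 5 (log2 change 0.89 ± 0.26, adjusted p = 0.0273; lost without day 5 c, day 5 d or day 7 d). Bid, which links death receptors to mitochondria, had 53.5 and 57 CPM on day 7 and 84.4 and 101 CPM on day 5 (log2 change -0.83 ± 0.22, adjusted p = 0.0184; lost when any 1 library was left out). Mcl1 had 166 and 172 CPM on day 7 and 154 and 129 CPM on day 5 (log2 change 0.17 ± 0.12, adjusted p = 0.375).

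Of 8 cytokine receptor genes of the common gamma chain family, 1 passed, against 13.1% of all genes tested. It was the shared chain itself, Il2rg (106 and 113 CPM on day 7 and 64.8 and 60.4 CPM on day 5; log2 change 0.72 ± 0.20, adjusted p = 0.0211; lost when any 1 library was left out). Il7r, named after its values were seen, had 45 and 40.3 CPM on day 7 and 35.3 and 30.6 CPM on day 5 (log2 change 0.29 ± 0.23, adjusted p = 0.451). Among 10 feedback genes and targets of STAT5, Bcl2, Socs1 and Socs3 were higher and none was lower (median log2 change 0.35). Of all genes tested, 6.45% were higher. The Socs3 call was lost without day 5 c, day 5 d or day 7 c. Socs1, a brake on JAK kinases, had 221 and 191 CPM on day 7 and 114 and 110.0 CPM on day 5 (log2 change 0.80 ± 0.18, adjusted p = 0.00583; lost without day 5 d or day 7 c). Pim1, another STAT5 target, had 733 and 835 CPM on day 7 and 563 and 535 CPM on day 5 (log2 change 0.43 ± 0.21, adjusted p = 0.193).

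Interferon response genes were higher for 6 of 13 tested and lower for none, and all 13 log2 changes were positive (median 1.07), at low levels. Of all genes tested, 6.45% were higher. Irf7, which amplifies the response, had 9.46 and 10.4 CPM on day 7 and 1.78 and 1.9 CPM on day 5, and Isg15 did not pass (31.7 and 39.3 CPM on day 7 and 13.6 and 22.4 CPM on day 5; log2 change 0.89 ± 0.34, adjusted p = 0.0958). With 1 library left out, 1 (without day 5 d) to 3 (without day 7 c) were higher. Immediate early and heat shock genes were higher for 5 of 21 (median log2 change 0.12), against the same 6.45%. The 2 day 7 libraries differed here. Fos had 30.7 and 12.4 CPM in day 7 c and d and 6.82 and 3.54 CPM in day 5 c and d (log2 change 1.99 ± 0.64, adjusted p = 0.0476). Egr1 had 35.4 and 14.1 CPM on day 7 and 7.41 and 7.85 CPM on day 5 (log2 change 1.61 ± 0.40, adjusted p = 0.0121). Jun (1.03 ± 0.25), Jund (0.61 ± 0.14) and Dusp1 (1.03 ± 0.25) were the other 3. The count was 0 without day 7 c, which also had the higher sum of stromal markers, 0 without day 5 d, 2 without day 5 c and 5 without day 7 d; the part of sample handling in these genes was not tested. Dusp2 had 226 and 307 CPM on day 7 and 249 and 294 CPM on day 5 (log2 change -0.11 ± 0.16, adjusted p = 0.726).

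Markers of other lineages were low for most lists. ILC2 markers, genes of group 2 innate lymphoid cells, were higher for 2 of 14 tested, against 6.45% of all genes tested. All 14 log2 changes were positive (median 1.26). The 16 listed genes summed to 478 and 389 CPM on day 7 and to 254 and 250 CPM on day 5. Rora, a factor that ILC2 need (chromosome 9, 68653786 to 69388246, plus strand), had 53.3 and 45.7 CPM on day 7 and 6.82 and 9.37 CPM on day 5 (log2 change 2.52 ± 0.42, adjusted p = 0.000703). Maf had 79.9 and 58.5 CPM on day 7 and 21.9 and 25.8 CPM on day 5 (log2 change 1.45 ± 0.34, adjusted p = 0.00777; lost without day 5 c, day 5 d or day 7 c). Lmo4, which made up 55.9% of the list's sum, had 246 and 200.5 CPM on day 7 and 163 and 157 CPM on day 5 (log2 change 0.40 ± 0.23, adjusted p = 0.277), 7 of the 16 genes were under 1 CPM in every library, and Areg had no count. The 16 NK and cytotoxic genes summed to 1740 and 1650 CPM on day 7 and to 1540 and 1520 CPM on day 5. Gzma, granzyme A, made up 86.2% of that sum, with 1432 and 1386 CPM on day 7 and 1378 and 1359.6 CPM on day 5 (log2 change -0.04 ± 0.17, adjusted p = 0.923), while 9 of the 16 were under 1 CPM in every library. Nkg7 was the NK gene that passed (212 and 194 CPM on day 7 and 99.4 and 97.6 CPM on day 5; log2 change 0.96 ± 0.26, adjusted p = 0.0202; lost when any 1 library was left out).

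Cpa3, a mast cell protease that early thymocytes also express, had 230.2 and 245 CPM on day 7 and 135 and 146 CPM on day 5 (log2 change 0.67 ± 0.21, adjusted p = 0.0389; lost when any 1 library was left out). It was 99.2% of the mast cell list's sum of 232 and 246 CPM on day 7 and 136 and 148 CPM on day 5, and 6 of the 10 listed genes, Fcer1a and Tpsb2 among them, had no count in the 4 libraries. B lineage genes summed to 55.8 and 39.2 CPM on day 7 and to 23.7 and 22.9 CPM on day 5, with 12 genes listed, 7 of them under 1 CPM in every library and Cd79a at 0. Vpreb1, of the surrogate light chain, was higher, 1 of 4 tested, against 6.45% of all genes tested. It had 17.1 and 13.7 CPM on day 7 and 5.04 and 4.68 CPM on day 5. The call was lost without day 5 c, day 5 d or day 7 c. Myeloid genes summed to 65.5 and 56.7 CPM on day 7 and to 41.5 and 58.4 CPM on day 5, with Elane and Cd14 at 0. The protease gene Ctss was higher, 1 of 14 tested, against the same 6.45%. It had 10.3 and 11 CPM on day 7 and 2.52 and 3.8 CPM on day 5. The call was lost when any 1 library was left out. Erythroid genes summed to 239 and 287 CPM on day 7 and to 268 and 374 CPM on day 5, 85.6% of it Hbb-bt. None of the tested dendritic cell (3), ILC3 (4), erythroid (4) and skeletal muscle (8) genes passed with edgeR or with DESeq2, and none had an unadjusted p under 0.05 with edgeR. Fewer cells of a type and less RNA per cell cannot be told apart in these bulk libraries.

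**Figure D4:**
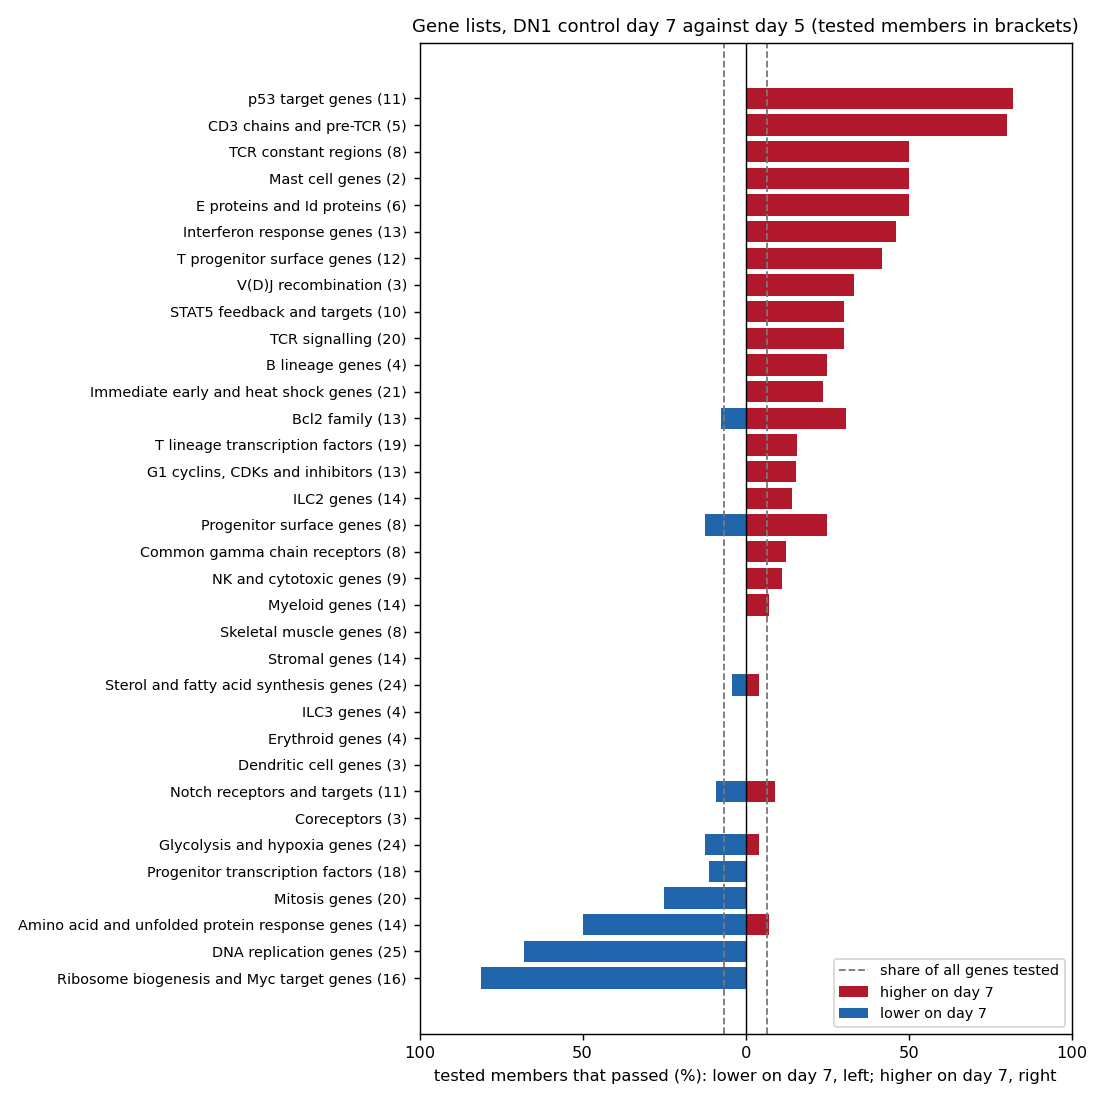
Share of tested members of each gene list that passed in DN1 control cultures, day 7 against day 5 (percent, higher on day 7 to the right and lower to the left, number tested in brackets). Dashed lines mark the share of all genes tested, 6.45% higher and 6.65% lower; p53 targets and CD3 chains lie at one end and ribosome biogenesis at the other.

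Among named genes past 20 CPM whose libraries did not overlap, the 12 largest increases were mostly in genes outside these lists. Ahnak2 had 20.1 and 21.2 CPM on day 7 and 1.63 and 2.91 CPM on day 5 (log2 change 3.08 ± 0.39, adjusted p = 7.12e-05). Serpine2, a protease inhibitor, had 41.5 and 34.5 CPM on day 7 and 4.75 and 5.7 CPM on day 5 (log2 change 2.77 ± 0.22, adjusted p = 7.92e-07). Cd163l1, a scavenger receptor family gene expressed by gamma delta T cells, had 39.2 and 32.7 CPM on day 7 and 5.93 and 4.3 CPM on day 5 (log2 change 2.74 ± 0.36, adjusted p = 9.06e-05). These 3 genes were at more than 6 times their day 5 means on day 7. Gbp6, an interferon-inducible GTPase (28.8 and 26.5 CPM on day 7 and 4.15 and 4.18 CPM on day 5; 2.64 ± 0.28), and Ms4a4b, a T cell membrane protein (52.9 and 48.7 CPM on day 7 and 7.27 and 8.1 CPM on day 5; 2.64 ± 0.47), were of like size. Aldoc, an aldolase, had 21.5 and 24.2 CPM on day 7 and 4.15 and 4.18 CPM on day 5 (2.37 ± 0.27). The actin-severing Gsn (2.22 ± 0.23), Tnfsf8, the ligand of CD30 (2.31 ± 0.33), Hmcn2 (2.77 ± 0.37), Lgals3, galectin 3 (2.54 ± 0.62; lost without day 5 c, day 5 d or day 7 c), Rora and Ly6a completed the 12. The other 11 passed in every fit that left out 1 library.

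The largest decreases were smaller. Loxl2, a lysyl oxidase of the extracellular matrix, had 42.1 and 55.4 CPM on day 7 and 166 and 155 CPM on day 5 (log2 change -1.80 ± 0.32, adjusted p = 0.000987). Lrrc17, a secreted leucine-rich protein, had 436 and 426 CPM on day 7 and 1115 and 975 CPM on day 5 (log2 change -1.36 ± 0.17, adjusted p = 5.32e-05). In the unsorted day 4 libraries, with stromal RNA included, Loxl2 had 94.1 and 85.6 CPM and Lrrc17 had 845 and 933 CPM. Snhg3, a host transcript of small nucleolar RNAs, had 114 and 114 CPM on day 7 and 251 and 256 CPM on day 5 (log2 change -1.24 ± 0.15, adjusted p = 5.19e-05). Snora73b, a small nucleolar RNA at the same locus whose reads overlap its host, had 48.9 and 54.9 CPM on day 7 and 101 and 105 CPM on day 5 (-1.07 ± 0.14). Slc7a5, the large neutral amino acid carrier, had 51.3 and 61 CPM on day 7 and 121 and 102 CPM on day 5 (log2 change -1.07 ± 0.23, adjusted p = 0.00535). Slc7a8, its relative, had 15 and 14.6 CPM on day 7 and 32.9 and 25.2 CPM on day 5 (log2 change -1.05 ± 0.33, adjusted p = 0.0426). Rraga, a GTPase that reports amino acids to mTORC1, had 113 and 149 CPM on day 7 and 269 and 263 CPM on day 5 (log2 change -1.10 ± 0.25, adjusted p = 0.00642). Lrpprc and Noa1, of mitochondrial gene expression (-1.20 ± 0.25 and -1.15 ± 0.24), Nol4l (-1.10 ± 0.31), the olfactory receptor gene Olfr889 (-1.34 ± 0.37) and Bcl11a completed the 12. Olfr889, Slc7a8 and Bcl11a passed in no fit that left out 1 library, Nol4l passed only without day 7 d, Slc7a5 was lost without day 5 c or day 7 c, Lrpprc and Rraga without day 7 c, and Noa1 without day 5 c.

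The unsorted day 4 libraries, taken before 4-OHT and holding stromal RNA, give each gene's earlier level without a test. In day order 4, 5 and 7, Cd3d had 31.4 and 22.8, then 44.9 and 46.1, then 179.7 and 152 CPM. Dntt had 65.1 and 40.1, then 87.2 and 74.7, then 296 and 271 CPM in the same order, and Bcl11b 256 and 221, then 514 and 462, then 652 and 666 CPM. All 3 were higher at each later time, but cells were sorted on day 5 and not on day 4. The part of the sort in the step from day 4 to day 5 was not tested. Genes that did not pass between days 5 and 7 also rose over that step. Cdk6 went from 932 and 886 CPM to 1742 and 1784 CPM, and Lck from 136 and 118 CPM to 270 and 271 CPM. Id3 took another course, with 904 and 901 CPM on day 4, 65.5 and 66.6 on day 5 and 251 and 284 on day 7, and so did Id2, with 158 and 160.3, then 64.5 and 64.6, then 147 and 143 CPM. Other genes higher on day 7 than on day 5 had also been higher on day 4. Gsn had 273 and 269, then 5.19 and 7.09, then 35.1 and 26.1 CPM. Lgals3 had 66.3 and 58.1, then 4.15 and 8.1, then 45.7 and 31.1 CPM. On day 4, Maf had 205 and 189 CPM and Notch3 83.8 and 80 CPM. Not all increases ran so: Aldoc had 1.91 and 2 CPM on day 4 and Hmcn2 0.358 and 0.143 CPM, below their day 5 levels. The share of stromal RNA in the day 4 levels of Id3, Id2 and these genes was not tested.

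The same 2 days in DN1 floxed cultures show how far these changes were shared by cells in which E2A and HEB were floxed. Of the 979 genes higher on day 7 in controls, 472 were also higher in floxed cultures (48.2% of 979 and 25.9% of the 1819 there), and of the 1009 lower, 491 were also lower (48.7% of 1009 and 34.2% of 1437). Among all genes tested, 12% were higher and 9.47% lower in floxed cultures. The change itself differed for 247 genes (1.63% of those tested), 115 with a more positive change in controls and 132 with a more negative one. Receptor genes were among those that differed, in both directions. Cd3d, Cd3g, Dntt and Trdc had a more positive change in controls, and Tcrg-C1 and the kinase Txk a more negative one. Cd3d had 179.7 and 152 CPM on day 7 and 44.9 and 46.1 on day 5 in controls, and 15.6 and 16.1 on day 7 and 14.7 and 27.9 on day 5 in floxed cultures (difference of log2 changes 2.20 ± 0.41, adjusted p = 0.00822). Cd3g had 2.57 and 3.2 CPM on day 7 and 3.1 and 9.21 on day 5 in floxed cultures (difference 2.15 ± 0.42, adjusted p = 0.0114). Dntt had 14.1 and 11.2 CPM on day 7 and 28.5 and 31.2 on day 5 there (difference 2.95 ± 0.57, adjusted p = 0.0116). In floxed cultures Cd3d, Cd3g and Dntt all had day 7 levels at or below their highest day 5 library, while in controls both day 7 libraries were above both day 5 libraries. Tcrg-C1 was higher on day 7 in both cultures and more so in floxed ones, with 1033 and 1004 CPM on day 7 and 345 and 389 on day 5 there (difference -0.97 ± 0.20, adjusted p = 0.0159). Txk was too, with 177 and 221 CPM on day 7 and 29.6 and 53 on day 5 in floxed cultures (difference -1.42 ± 0.29, adjusted p = 0.018). The difference of Trdc was 0.63 ± 0.15 (adjusted p = 0.0435). Cd247 was higher on day 7 in both cultures, and its difference was -0.02 ± 0.30 (adjusted p = 1).

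The 2 Id genes parted. Id3 was higher on day 7 in controls and lower in floxed cultures, with 106 and 65.4 CPM on day 7 and 159 and 133 on day 5 there (difference 2.70 ± 0.24, adjusted p = 1.42e-05). Id2 was higher in both and more so in floxed cultures, with 496 and 908 CPM on day 7 and 56.4 and 78.8 on day 5 (difference -2.31 ± 0.29, adjusted p = 0.000646). More positive in controls were also Cd34 (18.4 and 9.86 CPM on day 7 and 70.8 and 50.2 on day 5 in floxed cultures; difference 3.07 ± 0.42), Olfm5 (2.83 ± 0.52), the leukotriene gene Alox5ap (2.71 ± 0.61), the tetraspanin Tspan2 (2.45 ± 0.47) and Tcf7 (0.89 ± 0.21). More negative in controls were genes that rose in floxed cultures and stayed low in controls. Tnfrsf9, the receptor 4-1BB, had 8.49 and 5.99 CPM on day 7 and 3.26 and 3.67 on day 5 in controls, and 84.8 and 150.0 on day 7 and 2.12 and 3.26 on day 5 in floxed cultures (difference -4.49 ± 0.68, adjusted p = 0.00261). Il18r1, a receptor chain of interleukin 18, had 10.68 and 6.74 CPM on day 7 and 4.15 and 3.17 on day 5 in controls, and 31.5 and 52.9 on day 7 and 2.12 and 3.12 on day 5 in floxed cultures (difference -2.85 ± 0.62). The factor Ikzf3 (-5.02 ± 1.17), the myosin Myo6 (-4.67 ± 0.76), the lactate carrier Slc16a3 (-3.59 ± 0.67) and Ankrd6 (-3.29 ± 0.44) completed the 6. Il7r, the receptor of interleukin 7, had 58.4 and 48.2 CPM on day 7 and 14.7 and 11.6 on day 5 in floxed cultures (difference -1.74 ± 0.33, adjusted p = 0.00984). In glycolysis the difference passed for 8 of 24 genes, against 1.63% of all genes tested. Of these 8, Ldha had 739 and 873 CPM on day 7 and 503 and 452 on day 5 in floxed cultures (difference -1.10 ± 0.14, adjusted p = 0.000646), and Pgk1 differed by -1.12 ± 0.20. Trp53inp1 was the 1 of 11 p53 targets with a difference (1.01 ± 0.23, adjusted p = 0.0349), against the same 1.63%.

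Sex-linked genes and 1 floxed library stood apart beside these differences. Xist, which is expressed from the inactive X chromosome of females, was at 13.6 and 6.87 CPM on day 7 and 6.67 and 15.2 CPM on day 5 in DN1 controls. It was at 1630 and 1280 CPM on day 7 and 1160 and 1410 CPM on day 5 in floxed cultures, so genotype and sex cannot be told apart. Skeletal muscle genes, 8 in number, summed to 5.34 and 4.99 CPM on day 7 in controls and to 61.2 and 7750 CPM in floxed day 7 a and b. Without floxed day 7 b, 118 genes differed, and without floxed day 7 a, which leaves the muscle-rich library alone, 2315. Id3, Id2, Cd34, Tnfrsf9 and Ldha passed in all 8 fits that left out 1 library, Cd3d was lost without floxed day 5 b, Cd3g without floxed day 5 b or control day 5 d, and Dntt without floxed day 7 b or control day 5 d. Il7r was lost without control day 5 c, control day 7 d or floxed day 5 b, and Olfm5, Myo6, Slc16a3, Pgk1, Tspan2, Alox5ap, Il18r1, Ikzf3, Tcf7 and Trp53inp1 were each lost in 1 or more of the 8, Myo6 without control day 5 d and Slc16a3 without control day 5 c. The differences of Tcrg-C1, Txk and Trdc were each lost without any 1 of the 4 control libraries, and those of Tcrg-C1 and Txk without floxed day 5 a, Txk and Trdc without floxed day 7 b, and Trdc without floxed day 5 b.

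DN3 control cultures ask whether cells started at a later stage changed alike over the same days. Of the 979 genes higher on day 7 in DN1 controls, 516 were also higher in DN3 controls (52.7% of 979 and 32.3% of 1597), and of the 1009 lower, 556 were also lower (55.1% of 1009 and 37.7% of 1476). Among all genes tested, 10.5% were higher and 9.73% lower in DN3 controls. The change differed for 188 genes (1.24% of those tested), 67 more positive in DN1 and 121 more negative. Some receptor genes already stood high in DN3 cultures. Cd3d had 551 and 583 CPM on day 7 and 493 and 446 on day 5 there, above all DN1 libraries. Its change was smaller than in DN1 (difference 1.56 ± 0.36, adjusted p = 0.0388). Tcrg-C1 did not stand higher there, with 398 and 354 CPM on day 7 and 327 and 343 on day 5, below the DN1 control libraries of the same day. Dntt had 891 and 860.0 CPM on day 7 and 969.6 and 1087 on day 5 in DN3 cultures, and its difference missed the threshold (2.01 ± 0.50, adjusted p = 0.0557), as did that of Cd3g (0.68 ± 0.30, adjusted p = 0.314). Cd28 had 82.4 and 79.2 CPM on day 7 and 81.7 and 90.5 on day 5 in DN3 cultures (difference 2.05 ± 0.48, adjusted p = 0.0405). Id3 rose in both and more in DN1 (341 and 293 CPM on day 7 and 196 and 185 on day 5 in DN3 cultures; difference 1.25 ± 0.23, adjusted p = 0.0123). Igf2r, the mannose 6-phosphate receptor, had 37.8 and 37.3 CPM on day 7 and 7.56 and 8.74 on day 5 in DN1 controls, and 59 and 55 on day 7 and 38.3 and 60.9 on day 5 in DN3 controls (difference 1.96 ± 0.46, adjusted p = 0.0396). Scand1 (1.74 ± 0.30), Tnfrsf8, the receptor CD30 (1.62 ± 0.34), and Insig1 (1.53 ± 0.24) were the other large positive differences.

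More negative in DN1 than in DN3 cultures were genes that rose in DN3 cultures. Cpa3 had 230.2 and 245 CPM on day 7 and 135 and 146 on day 5 in DN1 controls, and 17.4 and 10.2 on day 7 and 1.42 and 1.75 on day 5 in DN3 controls (difference -2.37 ± 0.44, adjusted p = 0.0123). Kit had 26.5 and 16.4 CPM on day 7 and 3.62 and 5.12 on day 5 in DN3 controls (difference -2.43 ± 0.47, adjusted p = 0.0127). Gzma, level in DN1 controls, had 2337 and 1756 CPM on day 7 and 732 and 603 on day 5 in DN3 controls (difference -1.60 ± 0.24, adjusted p = 0.00279). Slc7a8 (-3.33 ± 0.62), St3gal2, a sialyltransferase (-3.31 ± 0.53), Emilin2, a matrix protein (-3.22 ± 0.54), the interferon-inducible GTPase Iigp1 (-2.81 ± 0.56), Ccdc102a (-2.75 ± 0.33) and F2r, a thrombin receptor (-2.72 ± 0.36), were the 6 largest. Iigp1 had 4.97 and 3.87 CPM on day 7 and 1.33 and 0.506 on day 5 in DN1 controls, and 67.6 and 66.4 on day 7 and 1.68 and 2.29 on day 5 in DN3 controls. F2r, Ccdc102a, Gzma, Scand1 and Insig1 passed in all 8 fits that left out 1 library. The differences of Cd3d, Cd28 and Tnfrsf8 were lost when any 1 of the 8 was left out, and those of Id3, Igf2r, Cpa3, Kit, Slc7a8, Emilin2, Iigp1 and St3gal2 in 1 or more, St3gal2 without DN3 day 5 d.

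**Figure D5:**
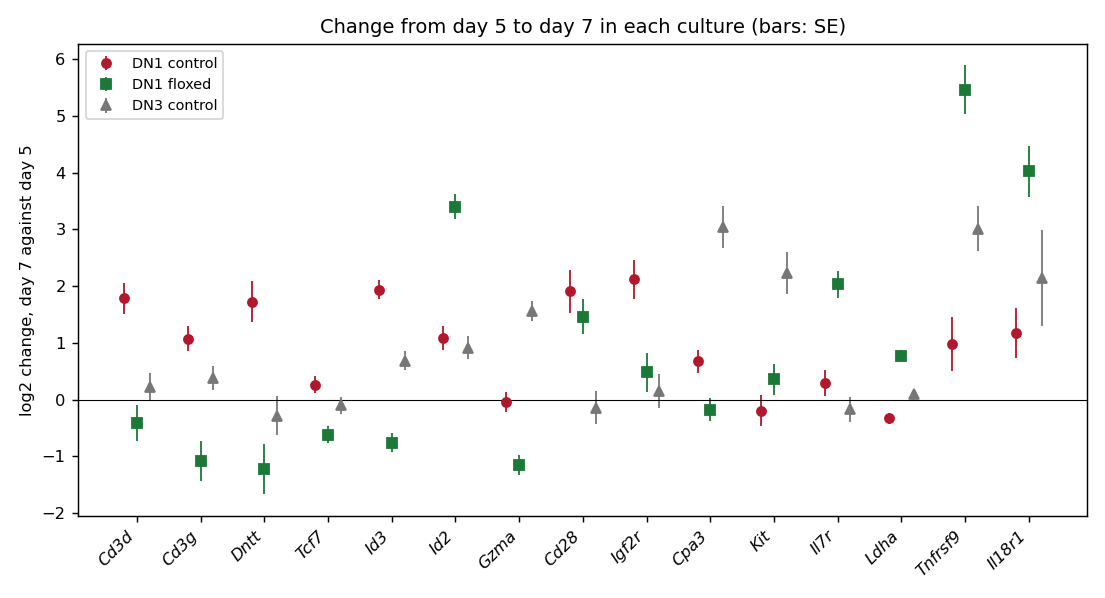
Log2 change, day 7 against day 5, with standard error bars, of 15 named genes in DN1 control (red circles), DN1 floxed (green squares) and DN3 control cultures (grey triangles). Cd3d, Cd3g, Dntt and Id3 lie above 0 in DN1 controls and below 0 in DN1 floxed cultures, and Kit and Cpa3 are highest in DN3 controls.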

How the data were processed

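The authors deposited raw counts per gene for each library, with mm10 and DESeq2 named in the submitters' processing notes; the aligner, the counter and the strand setting are not given in sources used here, so overlapping and antisense genes may share reads. RNA was extracted with Trizol, per the labels' protocols. Of 48881 gene IDs, 48664 matched GENCODE M21. The 24 culture libraries of 12 groups were fitted together in edgeR 4.0.16 (R 4.3.3) with TMM scaling, after filterByExpr with a minimum count of 10 left 15172 genes (common biological coefficient of variation 0.138, 12 residual degrees of freedom), and DESeq2 1.42.0 was an alternative. Levels are counts scaled by the library total (CPM), and ± is the standard error of a log2 change, which uses TMM scaling and can differ slightly from the ratio of CPM values. With 2 libraries a group, an exact permutation test could not reach p under 0.05.

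Members and lists were chosen with earlier results of these data known. Named genes were the 12 largest changes each way among genes that passed with at least 20 CPM in the higher group and no overlap, 6 lineage and E protein genes, up to 5 members of each of 34 lists with the most abundant member per length that did not pass, and the 6 largest differences each way against each other culture. Gata3, Il7r, Kit, Rag2, Spib, Hoxa9, Cd2, Prkcq, Themis, Ccr7, Asns, Slc7a11, Ddit3, Mdm2, Eda2r, Socs3, Irf7, Vpreb1, Ctss and Xist were chosen after their values were seen. A few genes that met this rule are not reported here.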

Additional observations from a re-analysis of the deposited data

Results flagged for a closer look

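The results below were singled out because the change from day 5 to day 7 in DN1 control cultures differed from that in another culture by the test of the difference itself (edgeR, adjusted p under 0.05). Values are differences of log2 changes, and each is past the threshold. No explanation was tested.

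Against DN1 floxed cultures, the change in controls was more positive for Cd34 by 3.07, Dntt by 2.95, Olfm5 by 2.83, Alox5ap by 2.71, Id3 by 2.70 and Tspan2 by 2.45. Smaller positive differences were those of Cd3d (2.20), Cd3g (2.15), Lyl1 (1.88), Gzma (1.11), Trp53inp1 (1.01), Tcf7 (0.89) and Trdc (0.63). The change in controls was more negative for Ikzf3 (-5.02), Myo6 (-4.67), Tnfrsf9 (-4.49), Slc16a3 (-3.59), Ankrd6 (-3.29), Il18r1 (-2.85), Slc7a8 (-2.56) and Id2 (-2.31). It was also more negative for Il7r (-1.74), Ahr (-1.65), F2r (-1.45), Txk (-1.42), Pgk1 (-1.12), Ldha (-1.10), Mthfd2 (-1.04), Tcrg-C1 (-0.97) and Hspa5 (-0.57).

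Against DN3 control cultures, the change in DN1 controls was more positive for Cd28 (2.05), Igf2r (1.96), Scand1 (1.74), Tnfrsf8 (1.62), Cd3d (1.56), Insig1 (1.53) and Id3 (1.25). It was more negative for Slc7a8 (-3.33), St3gal2 (-3.31), Emilin2 (-3.22), Iigp1 (-2.81), Ccdc102a (-2.75), F2r (-2.72) and Kit (-2.43). Cpa3 (-2.37), Rraga (-1.62), Gzma (-1.60), Hk2 (-1.31) and Aen (-0.78) were more negative as well.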

How the results depend on the processing

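The count of genes passing between day 7 and day 5 in DN1 controls (1988) was 1871 with DESeq2, 1904 with RLE size factors, 1574 with the libraries of days 5 and 7 alone, 1989 with no filter on low counts and 4261 with the 4 libraries alone, where the spread rests on 2 degrees of freedom. None of the 1988 changed sign under these settings or with 1 library left out. This adds little support, because each of these fits reuses libraries of the main one. Leaving out 1 library gave 703 to 1025, and the lone library of a day is then assumed to vary like the other groups. For the difference from DN1 floxed cultures (247) the counts were 444 with DESeq2, 148 with days 5 and 7 alone, 22 with the groups compared alone, 922 with no filter and 64 to 2315 with 1 library left out. For the difference from DN3 controls (188) they were 372 with DESeq2, 950 with the groups compared alone, 446 with no filter and 33 to 120 with 1 library left out. The causes were not tested.

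A replicate block by library letter gave 1911, 259 and 173 genes for the 3 comparisons. The labels do not say that a letter marks a shared source. The deviations of same-lettered libraries on day 7 and day 5 correlated over genes at -0.0252 in DN1 controls, -0.0313 in DN1 floxed, -0.0503 in DN3 control and 0.135 in DN3 floxed cultures. Among genes named for day 7 against day 5, the block ended 5 calls (Tcf12, Ccne2, Cdkn1b, Pmaip1 and Slc7a8).

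The libraries held 6743376 to 8243416 counts, so lists near 1 CPM rest on few reads, and 2 libraries a day limit every test.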
